A study of Homo sapiens with 9 samples.

Results

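NQO1, GCLM, GCLC, TXNRD1, SRXN1, HMOX1 and GSR are target genes of the transcription factor NRF2, which is encoded by NFE2L2 and held in check by KEAP1. These 9 genes were taken by name from the 25159 genes listed in the deposited tables, and all 9 passed the filter on low counts in each comparison. They were chosen because NQO1 had been seen to be far lower with one of the siRNAs, so that their values in that comparison are given as a description without a test. RNA-seq was carried out on WiDr cells, a human colon adenocarcinoma line, 24 h after transfection with 100 nM of a control siRNA or of either of a pair of siRNAs against LIMp27 (LINC01356), a long noncoding RNA. The latter are LIMp27 siRNA-1 and LIMp27 siRNA-2, called siRNA-1 and siRNA-2 from here on, and each of the 3 groups has 3 libraries. The cells were not otherwise treated, and the labels do not say whether the 3 libraries of a group came from separate cultures. The study's supplement calls its RNA-seq repeats biological in one legend and experimental in another. P-values measure the spread between these libraries only. Those of siRNA-2 against siRNA-1 use the siRNA-2 libraries in which NQO1 was chosen, so for the 9 genes they are no independent support.

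NRF2 is a transcription factor that is made continuously and destroyed just as fast. KEAP1 binds it in the cytoplasm and presents it to the CUL3 ubiquitin ligase. When oxidants or electrophiles modify cysteines of KEAP1, NRF2 escapes, pairs with a small MAF protein in the nucleus and binds antioxidant response elements near genes for quinone reduction, glutathione synthesis, the thioredoxin system and heme breakdown. Much of this control acts on the NRF2 protein, which RNA-seq does not measure. In bulk RNA, fewer cells of a kind and less RNA per cell cannot be told apart.

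Depth ranged from 14361629 to 21524623 reads assigned to genes in a library. LIMp27 had 0, 0 and 2 reads in the control libraries, 0 in each siRNA-1 library and 0, 2 and 1 in the siRNA-2 libraries. These are too few to tell a level from 0, so its knockdown could not be checked from the reads at this depth. The study's supplement reports that LIMp27 knockdown in WiDr cells was checked by qPCR. The colon epithelial markers fitted the label, with 8 of 10 at an FPKM of 1 or more and a summed FPKM of 10950 to 11530 in the control libraries, 8353 to 8661 with siRNA-1 and 7133 to 7948 with siRNA-2. The sum rested mostly on KRT8 and KRT18, which fell with both siRNAs, while EPCAM, at log2 fold changes of 0.17 and 0.13, and VIL1, at 0.14 and 0.79, rose with both. CDX2 was below 1 FPKM and CDX1 was not listed in both tables. Of the 9 markers tested, 6 were called lower and 2 higher with siRNA-1, by the test named below. With siRNA-2, 5 were lower and 3 higher. Their lowest log2 fold changes were −2.03 and −1.65, and their medians −0.28 and −0.65. Over all tested genes, 28.3% were lower and 26.5% higher with siRNA-1, and 29.0% and 27.7% with siRNA-2. Of 10 markers of blood, endothelial, stromal, muscle and liver cells, 4 were listed in both tables, with a summed FPKM of at most 2.11 in any library. Changes reached far beyond the NRF2 pathway: by edgeR's quasi-likelihood test, at an adjusted p under 0.05, 54.8% of 14347 tested genes were called with siRNA-1 (3802 higher, 4066 lower) and 56.7% of 14204 with siRNA-2 (3939 higher, 4120 lower). The split depends on the scaling: upper-quartile normalization gave 4912 higher and 3080 lower with siRNA-1, and 4927 higher and 3407 lower with siRNA-2.

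The 9 genes differ widely in abundance. Levels between genes are compared here by the deposited FPKM, which scales reads by the length of the gene and the total of the library. In the control libraries TXNRD1, a selenium-containing thioredoxin reductase, stood at 680 ± 20.2 FPKM (SD, n = 3). NQO1, a quinone reductase that uses NADPH or NADH, came next at 244 ± 5.89 FPKM, and GCLC, the catalytic subunit of the enzyme that starts glutathione synthesis, stood at 136 ± 3.38 FPKM. NFE2L2 at 118 ± 3.29 FPKM and GSR, the glutathione reductase, at 113 ± 5.32 FPKM overlapped in their libraries. So did GCLM, the modifier subunit that partners GCLC, at 56.4 ± 1.03 FPKM and KEAP1 at 53.3 ± 2.81 FPKM. HMOX1, the inducible heme oxygenase, was at 34.8 ± 2.54 FPKM and SRXN1, which repairs overoxidized peroxiredoxins, at 4.31 ± 1.03 FPKM. With siRNA-1 NQO1 was still behind TXNRD1 alone, at 188 ± 6.83 FPKM. With siRNA-2 it stood at 46.3 ± 3.55 FPKM, below TXNRD1, NFE2L2, GCLC, KEAP1 and GSR.

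**Figure D1:**
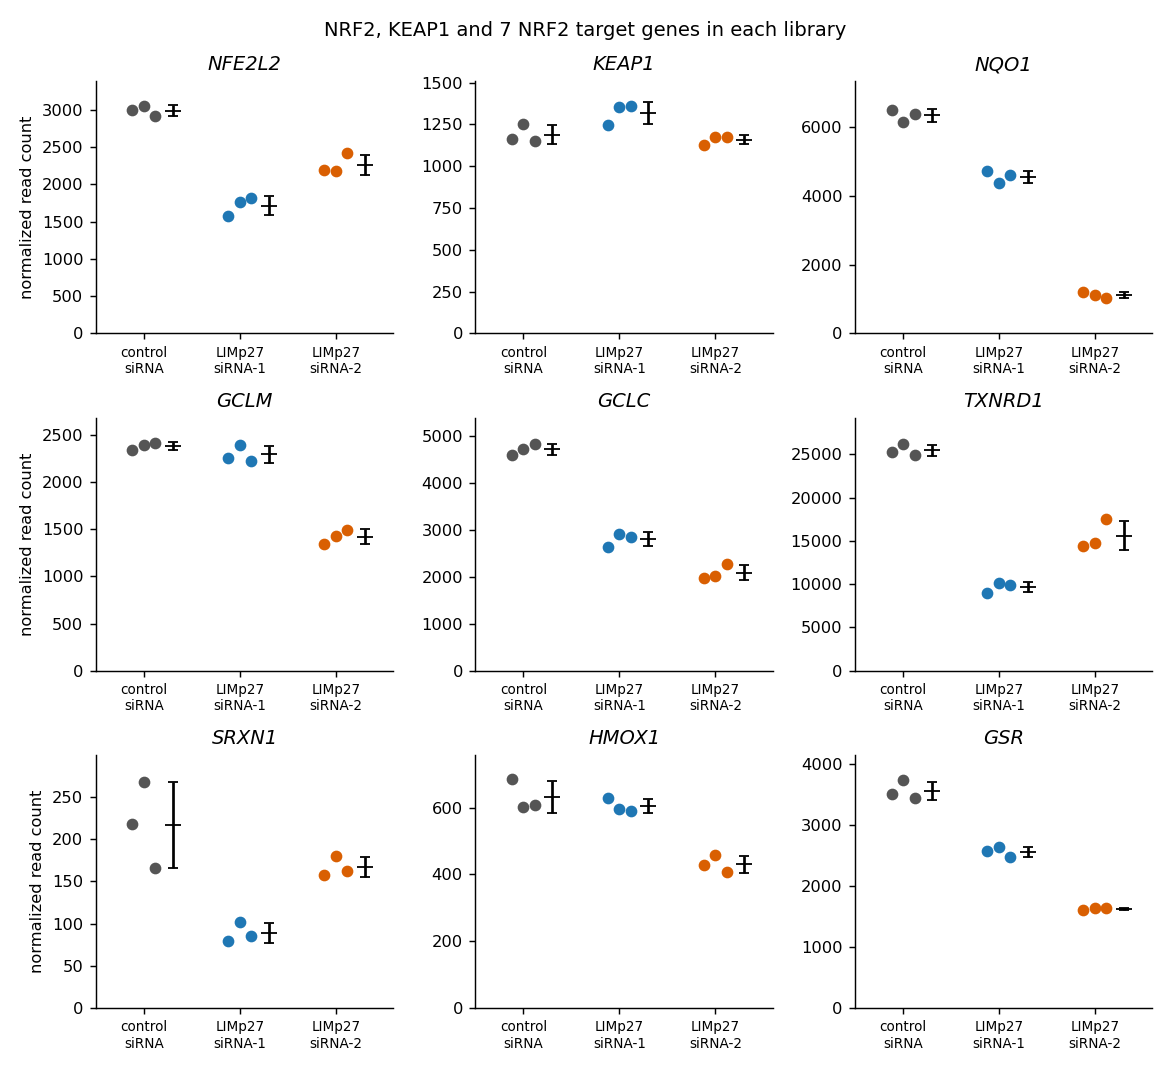
Normalized read counts (y axis, from 0, own scale per gene) of the 9 genes in the 3 libraries of each group (x axis); points are libraries, and the black mark and bar are the mean and SD. NQO1 is near 6348 in the control libraries, 4567 with siRNA-1 and 1128 with siRNA-2, while NFE2L2, TXNRD1 and SRXN1 are lowest with siRNA-1.

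NFE2L2, the gene of NRF2 itself, was lower with both siRNAs, and more so with siRNA-1. Its normalized read counts, scaled to a common library size over all 9 libraries, were 3004, 3054 and 2914 with control siRNA, 1570, 1759 and 1819 with siRNA-1, and 2199, 2177 and 2415 with siRNA-2. The 3 groups did not overlap, and the siRNA-2 libraries lay between the others. Fold changes come from a separate fit for each comparison. NFE2L2 fell by 0.79 ± 0.051 (SE) on the log2 scale with siRNA-1 (adjusted p = 1.1e-13 by edgeR). With siRNA-2 its log2 fold change was −0.39 (95% interval −0.51 to −0.28), and in the direct comparison it was higher with siRNA-2 than with siRNA-1 by 0.41 ± 0.061 (SE) on the log2 scale (adjusted p = 1.5e-06 by edgeR). The exons of NFE2L2 (chr2:177227595-177392697 in GRCh38, minus strand) overlap those of AGPS on the other strand, and whether the reads were counted by strand is not given in the sources used here. AGPS had log2 fold changes of −0.46 with siRNA-1 and −1.14 with siRNA-2, the opposite order of the siRNAs from that of NFE2L2. How much the overlap moved the NFE2L2 counts was not tested.

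KEAP1, the inhibitor, moved little. It had 1162, 1255 and 1151 normalized counts with control siRNA, 1245, 1354 and 1361 with siRNA-1, and 1130, 1172 and 1176 with siRNA-2. Each siRNA group overlapped with the control libraries. KEAP1 rose by 0.16 ± 0.055 (SE) on the log2 scale with siRNA-1 (adjusted p = 0.016 by edgeR), a call that was lost without control replicate 1 or 3, without siRNA-1 replicate 2 or 3, and with DESeq2, at adjusted p of 0.0585 to 0.0865. With siRNA-2 its log2 fold change was −0.03 (95% interval −0.16 to 0.099). In the direct comparison KEAP1 was lower with siRNA-2 by a log2 fold change of −0.18 ± 0.061 (SE, adjusted p = 0.018 by edgeR), and this call was lost without siRNA-1 replicate 2 or 3 or siRNA-2 replicate 1, at adjusted p of 0.0801 to 0.0978.

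NQO1 stood apart from the other targets with siRNA-2. It had 6509, 6154 and 6380 normalized counts in the control libraries, 4715, 4374 and 4613 with siRNA-1, and 1214, 1133 and 1036 with siRNA-2. The highest siRNA-2 library was thus far below the lowest library of both other groups. NQO1 fell by 0.47 ± 0.044 (SE) on the log2 scale with siRNA-1 (adjusted p = 2.6e-10 by edgeR). Its log2 fold change with siRNA-2 was −2.48 (95% interval −2.60 to −2.36), 5.58-fold lower, and −1.999 (95% interval −2.12 to −1.88) against siRNA-1. From the lowest log2 fold change upward it ranked 25 of 14204 genes with siRNA-2 and 1688 of 14347 with siRNA-1.

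The glutathione genes GCLC, GCLM and GSR were each lower with siRNA-2 than in either other group. GCLC had 4605, 4739 and 4836 normalized counts with control siRNA, 2630, 2915 and 2862 with siRNA-1, and 1973, 2011 and 2267 with siRNA-2, with no overlap between the groups. It fell by 0.75 ± 0.046 (SE) on the log2 scale with siRNA-1 (adjusted p = 4.4e-14 by edgeR), and its log2 fold change with siRNA-2 was −1.18 (95% interval −1.29 to −1.06). GSR had 3505, 3729 and 3444 normalized counts with control siRNA, 2565, 2635 and 2467 with siRNA-1, and 1608, 1639 and 1631 with siRNA-2. These groups were also fully separated. GSR fell by 0.47 ± 0.046 (SE) on the log2 scale with siRNA-1 (adjusted p = 6.5e-10 by edgeR), and its log2 fold change with siRNA-2 was −1.12 (95% interval −1.24 to −1.01).

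GCLM differed from its partner subunit GCLC. It had 2343, 2399 and 2423 normalized counts with control siRNA, 2264, 2400 and 2229 with siRNA-1, and 1344, 1427 and 1499 with siRNA-2. Its siRNA-1 libraries overlapped with the control libraries, with a log2 fold change of −0.05 (95% interval −0.15 to 0.044, adjusted p = 0.36 by edgeR). With siRNA-2 all 3 libraries lay below, at a log2 fold change of −0.74 (95% interval −0.86 to −0.62). Against siRNA-1, the log2 fold changes with siRNA-2 were −0.68 ± 0.058 (SE) for GCLM, −0.42 ± 0.059 (SE) for GCLC and −0.64 ± 0.054 (SE) for GSR, with adjusted p of 3.4e-11, 7.2e-07 and 3.2e-11 by edgeR.

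HMOX1, which opens the heme ring, was lower with siRNA-2 than in both other groups. It had 687, 602 and 607 normalized counts with control siRNA, 628, 596 and 590 with siRNA-1, and 427, 457 and 407 with siRNA-2. Control and siRNA-1 libraries overlapped, and the log2 fold change was −0.06 (95% interval −0.20 to 0.077, adjusted p = 0.46 by edgeR). With siRNA-2 it was −0.55 (95% interval −0.72 to −0.38), and in the direct comparison HMOX1 was lower with siRNA-2 by a log2 fold change of −0.47 ± 0.077 (SE, adjusted p = 6.3e-06 by edgeR).

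TXNRD1 and SRXN1 were lowest with siRNA-1. TXNRD1 had 25313, 26164 and 24922 normalized counts with control siRNA, 9003, 10131 and 9931 with siRNA-1, and 14461, 14760 and 17507 with siRNA-2. No groups overlapped, and siRNA-1 gave the lowest values. TXNRD1 fell by 1.39 ± 0.046 (SE) on the log2 scale with siRNA-1 (adjusted p = 2.6e-20 by edgeR). Its log2 fold change was −0.70 (95% interval −0.82 to −0.59) with siRNA-2, and 0.70 ± 0.059 (SE) for siRNA-2 over siRNA-1 (adjusted p = 2.5e-11 by edgeR). SRXN1, the least abundant of the 9, had 218, 268 and 166 normalized counts with control siRNA, 79.0, 101 and 84.8 with siRNA-1, and 158, 180 and 163 with siRNA-2. Only its siRNA-1 libraries were clear of the control libraries. SRXN1 fell by 1.28 ± 0.15 (SE) on the log2 scale with siRNA-1 (adjusted p = 2.5e-08 by edgeR) and was higher with siRNA-2 than with siRNA-1 by 0.93 ± 0.14 (SE) on the log2 scale (adjusted p = 2.0e-06 by edgeR). Its log2 fold change of −0.37 with siRNA-2 rested on the wide control group, since it was −0.20 without control replicate 2 and −0.54 without control replicate 3.

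**Figure D2:**
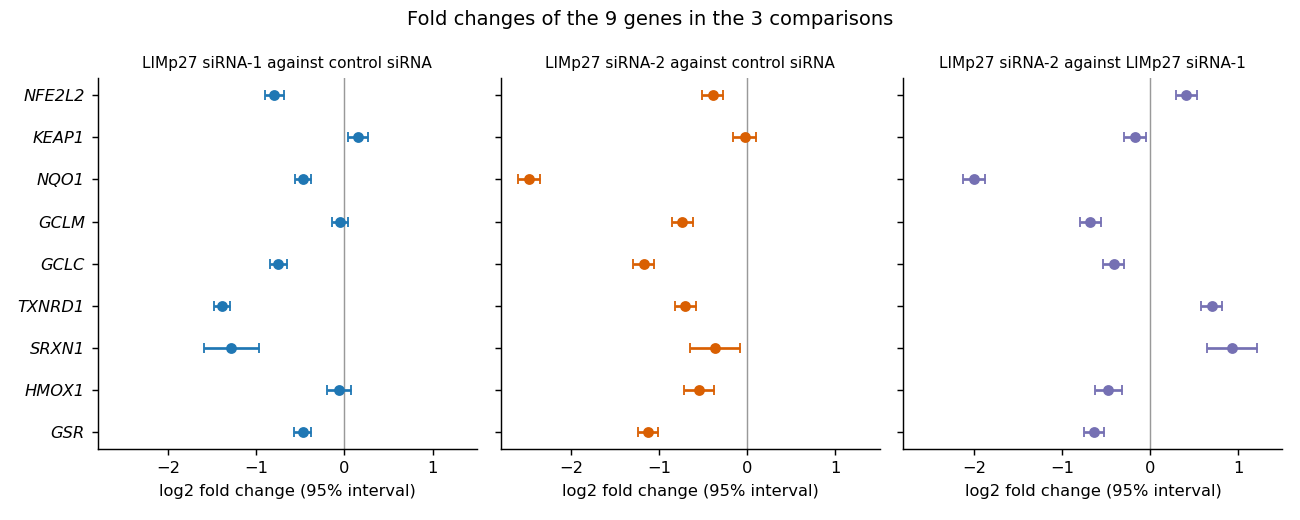
Log2 fold changes (x axis) of the 9 genes (rows) in each of the 3 comparisons (panels), from edgeR; points are estimates and bars are 95% intervals. NFE2L2, TXNRD1 and SRXN1 lie above 0 in the right panel, at 0.41, 0.70 and 0.93, and NQO1 lies lowest at −1.999.

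Over the 9 genes, 6 fell and 1 rose with siRNA-1, with a median log2 fold change of −0.47, where 28.3% of all tested genes were called lower and 26.5% higher and the median of all genes was 0.00094. With siRNA-2, 8 were past the same threshold on the lower side and 0 on the higher, with a median of −0.70, beside backgrounds of 29.0% lower and 27.7% higher and a median of 0.012 over all genes. Nothing is read from that count, since the comparison served to choose the genes. All 3 libraries lay below all control libraries for 6 of the 9 with siRNA-1 (30.9% of all tested genes) and for 7 of the 9 with siRNA-2 (31.4%). In the direct comparison 3 of the 9 were higher and 6 lower with siRNA-2, at backgrounds of 23.1% and 22.4% of all tested genes (45.4% in all), and the 9 genes had no common direction there. The libraries of all 9 were fully separated, above for 3 (25.3% of all tested genes) and below for 6 (27.2%). The comparisons with control share the same control libraries, and the direct comparison shares the siRNA-2 libraries in which NQO1 was chosen.

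Other genes act on NRF2 or share its DNA sites. Of 20 such genes, 10 fell and 3 rose with siRNA-1, while 2 fell and 4 rose with siRNA-2. Of all tested genes, 28.3% fell and 26.5% rose with siRNA-1, and 29.0% fell and 27.7% rose with siRNA-2, so that the counts of the list lay above the background for lower genes with siRNA-1 and below it in the other 3 cases. The median log2 fold changes of the list were −0.15 and 0.037. NFE2L3, a relative of NRF2, had 2502, 2687 and 2653 normalized counts with control siRNA, 1082, 1142 and 1271 with siRNA-1, and 2391, 2343 and 2653 with siRNA-2. It fell by 1.16 ± 0.055 (SE) on the log2 scale with siRNA-1 (adjusted p = 1.0e-16 by edgeR) and had a log2 fold change of −0.079 with siRNA-2 (adjusted p = 0.25 by edgeR). The small MAF genes, whose proteins partner NRF2 on DNA, fell with siRNA-1 at log2 fold changes of −0.33 for MAFF, −0.24 for MAFG and −0.31 for MAFK, and did not pass the test with siRNA-2. Left-out libraries or another scaling brought 3 of these genes past it with siRNA-2, NFE2L3 and MAFF without siRNA-2 replicate 3 and MAFG, at 0.08, with upper-quartile normalization. BACH1, a repressor at the same sites, fell with siRNA-1 (log2 fold change −0.24) and was at 0.00 with siRNA-2. AMER1, which encodes a KEAP1-binding protein, fell with siRNA-1 (−0.71). SQSTM1, whose product p62 sequesters KEAP1, fell with both, at −0.28 and −0.22. CUL3, the ligase scaffold, fell by 0.13 with siRNA-1, a call lost with upper-quartile normalization and without control replicate 1 or 2 or siRNA-1 replicate 3. NFE2L1, another relative of NRF2, and GSK3B, a kinase that marks NRF2 for a KEAP1-independent ligase, rose with both, NFE2L1 at log2 fold changes of 0.45 and 0.64 and GSK3B at 0.36 and 0.43. In the direct comparison 11 of the 20 were higher and 1 lower with siRNA-2, or 55.0% and 5.0% beside 23.1% and 22.4% of all tested genes.

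Among 33 other known NRF2 targets, 32 were tested, and CYP4F11 had too few reads. With siRNA-1, 17 fell and 8 rose (53.1% and 25.0% of the list), at a median log2 fold change of −0.24. With siRNA-2, 15 fell and 8 rose (46.9% and 25.0%), at a median of −0.099. Over all tested genes, 28.3% fell and 26.5% rose with siRNA-1, at a median of 0.00094. With siRNA-2 these were 29.0% and 27.7%, at a median of 0.012. The shares of the list that rose thus lay near those of all genes. AKR1B10, a reductase of aldehydes and retinal, had the lowest log2 fold change of the list with siRNA-1. It had 7801, 7742 and 7721 normalized counts with control siRNA, 744, 662 and 739 with siRNA-1, and 3088, 3093 and 3224 with siRNA-2. Its log2 fold changes were −3.44 ± 0.052 (SE) and −1.30 ± 0.050 (SE), and it was higher with siRNA-2 than with siRNA-1 by 2.15 ± 0.060 (SE) on the log2 scale (adjusted p = 8.3e-29, 9.1e-19 and 1.7e-22 by edgeR). AKR1B10 and NQO1, both strongly lowered targets, thus stood in opposite order under the siRNAs.

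SLC7A11, the cystine importer that feeds glutathione synthesis, fell with both siRNAs. It had 1208, 1177 and 1262 normalized counts with control siRNA, 613, 605 and 562 with siRNA-1, and 611, 606 and 717 with siRNA-2, at log2 fold changes of −1.03 and −0.91. The direct comparison gave 0.13 (95% interval −0.024 to 0.29, adjusted p = 0.16 by edgeR). OSGIN1, a growth regulator induced by oxidants, fell by 0.87 and 0.41 on the log2 scale. PRDX1, a peroxiredoxin, fell with siRNA-1 from 17208 ± 712 to 7533 ± 606 normalized counts (SD, n = 3; log2 fold change −1.19, adjusted p = 5.3e-18 by edgeR), and its log2 fold change with siRNA-2 was −0.17 (adjusted p = 0.0032 by edgeR), a call lost with upper-quartile normalization. UGDH, which makes UDP-glucuronate, showed the same order at −1.03 and −0.23. TXN, the thioredoxin that TXNRD1 reduces, had −0.08 with siRNA-1 (adjusted p = 0.12 by edgeR) and −0.13 with siRNA-2, of which the second passed the test, though not with upper-quartile normalization, and the first passed without siRNA-1 replicate 1. AKR1C1, AKR1C2 and AKR1C3 fell with siRNA-1, at −0.63, −0.94 and −0.48, and had 0.12, 0.05 and 0.24 with siRNA-2, of which AKR1C3 passed the test, as did AKR1C1 with upper-quartile normalization. These 3 genes are close copies, so how reads were shared among them is uncertain. HTATIP2, an oxidoreductase, rose with siRNA-1 and fell with siRNA-2, from 1928 ± 96.2 normalized counts to 2422 ± 53.6 and 1177 ± 59.2 (SD, n = 3), which is 0.33 and −0.70 on the log2 scale (adjusted p = 9.3e-07 and 7.5e-11 by edgeR). PIR, EPHX1 and ME1 rose with both siRNAs, at log2 fold changes of 0.61 and 0.28 for PIR, 0.36 and 0.50 for EPHX1, and 0.18 and 0.43 for ME1. The call of PIR with siRNA-2 was lost with DESeq2 and without control replicate 2 or siRNA-2 replicate 1 or 3, and that of ME1 with siRNA-1 with DESeq2 and without control replicate 1 or 2 or siRNA-1 replicate 2. Of the 32, 12 were lower with both siRNAs, 4 were higher with both and 3 were called in opposite directions, or 37.5%, 12.5% and 9.38%. Over the 14025 genes tested in both comparisons, which share their control libraries, these shares were 18.8%, 16.4% and 3.79%.

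**Figure D3:**
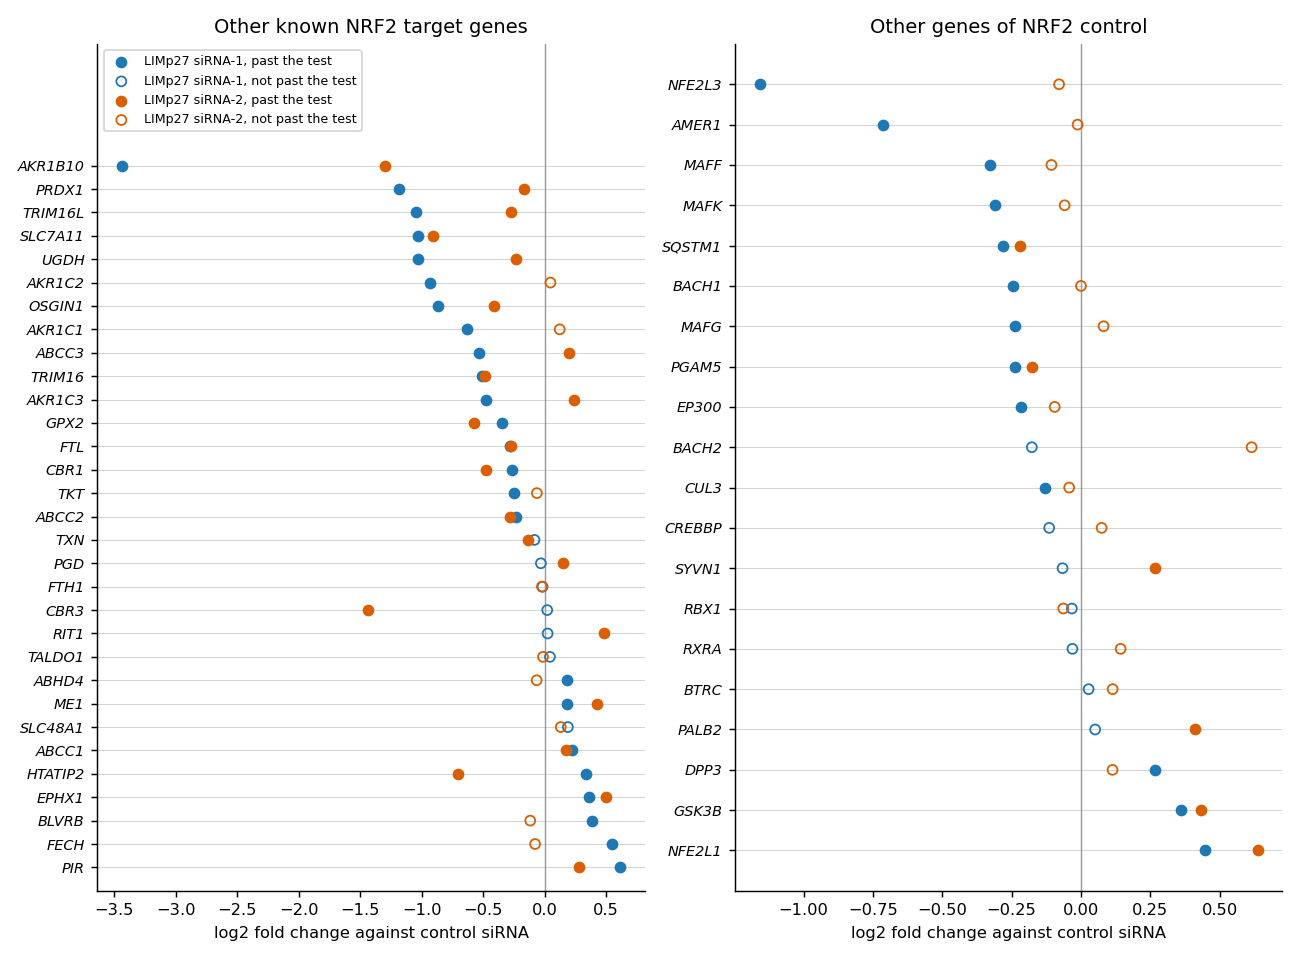
Log2 fold changes against control siRNA (x axis) of 31 of the other NRF2 target genes (left) and 20 other genes of NRF2 control (right), ordered by the value with siRNA-1; filled points are past an adjusted p of 0.05 by edgeR and open points are not. AKR1B10 is farthest to the left in its panel with siRNA-1 at −3.44, and NFE2L3 in its own at −1.16.

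Neighbouring pathways were read against the same shares of all tested genes, 28.3% lower and 26.5% higher with siRNA-1 and 29.0% and 27.7% with siRNA-2. Of 27 tested genes of glutathione synthesis and use, 8 fell and 11 rose with siRNA-1, and 10 fell and 7 rose with siRNA-2. The shares were 29.6% lower and 40.7% higher with siRNA-1, and 37.0% and 25.9% with siRNA-2, of which the first and the last lie near those of all genes. GGCT, which releases amino acids from gamma-glutamyl peptides, had log2 fold changes of −0.51 and −2.46, close to those of NQO1. GPX8, a peroxidase of the endoplasmic reticulum, had −0.51 and −2.03, and MGST1, a membrane-bound glutathione transferase, −0.16 and −1.08, the first of these lost with upper-quartile normalization. CHAC1, which degrades glutathione, fell by 1.06 and 0.84 on the log2 scale, while GSS, the second enzyme of glutathione synthesis, rose by 0.29 and 0.40, and GSTZ1 by 1.20 and 0.72. Of 20 other thioredoxin and peroxide genes, 7 fell and 9 rose with siRNA-1, and 2 fell and 10 rose with siRNA-2, counts above the background of both directions with siRNA-1, and below it for lower and above it for higher genes with siRNA-2. CAT, the catalase, fell by 0.24 with siRNA-1 and rose by 0.84 with siRNA-2, and PRDX4 rose with both, by 0.85 and 0.86. SOD2, the mitochondrial superoxide dismutase, fell by 0.24 and 0.78. Of 12 heme genes, 7 fell and 2 rose with siRNA-1 and 5 fell and 3 rose with siRNA-2, which is 58.3% lower and 16.7% higher, then 41.7% and 25.0%. CPOX, an enzyme late in heme synthesis, had log2 fold changes of −0.81 and −1.99.

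NQO1 is also a target of the aryl hydrocarbon receptor, a ligand-activated transcription factor that shares genes with NRF2. AHR, its gene, had 1391 ± 88.7 normalized counts with control siRNA, fell to 810 ± 51.6 with siRNA-1 and rose to 1618 ± 44.6 with siRNA-2 (SD, n = 3; log2 fold changes −0.78 and 0.22, adjusted p = 4.1e-12 and 0.0024 by edgeR). Its target CYP1B1 had −0.02 with siRNA-1 (adjusted p = 0.85 by edgeR) and rose by 1.33 with siRNA-2. TIPARP, another target, had 0.04 and −0.37, of which the second passed the test. ALDH3A1 fell by 1.79 and 0.75. UGT1A6 fell by 1.77 with siRNA-1 and was also called lower with siRNA-2. CYP1A1 rose from low counts with both siRNAs, from 5.04, 0 and 6.02 normalized counts with control siRNA to 13.7 to 28.0 in the siRNA libraries (log2 fold changes 1.91 and 2.62, adjusted p = 0.0033 and 8.3e-05 by edgeR). Its fold changes rest on few reads and one control library at 0. Of 9 tested genes of this receptor, 3 rose and 3 fell with siRNA-1, and 4 rose and 3 fell with siRNA-2, which is 33.3% each way and then 44.4% higher and 33.3% lower. Over all tested genes, 26.5% rose and 28.3% fell with siRNA-1, and 27.7% rose and 29.0% fell with siRNA-2. On so short a list the shares are coarse, and nothing is read from them.

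NRF2 binds the antioxidant response element, whose core is TGACNNNGC. In RefSeq windows from 250 bases before to 50 bases after the gene start (GRCh38.p14), read on both strands, this core was present in 13.3% of 35116 windows. Of the 9 genes, 7 had windows, 10 in all, and 4 windows of 3 genes held the core, while 8 of 29 windows of the other NRF2 targets did. NQO1 had no match in the span read here, and sites farther from the gene start were not read. The TGACTCA site of AP-1, which can overlap the core, was in 4.95% of all windows. The matches of GCLM (chr1:93909448-93909472, plus strand), KEAP1 (chr19:10502786-10502810, plus strand) and TXNRD1 (chr12:104286922-104286946, minus strand) are shown because these genes moved differently under the siRNAs, with the core in capitals. KEAP1 has 2 matches and TXNRD1 has 3, the other 2 of TXNRD1 in another window, and 1 per gene is shown. A match is a stretch of letters and not a measured binding site.
GCLM: gaagacaaTGACTAAGCagaaatcg
KEAP1: ggtcaccaTGACTAAGCagagccgg
TXNRD1: agtcagaaTGACAAAGCagaaatcc
GCLM and KEAP1 share all 9 letters of the core, and GCLM had a log2 fold change of −0.74 with siRNA-2 and KEAP1 one of −0.03. What part the core had in these levels was not tested.

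The genes whose pattern over the 9 libraries was most like that of NQO1 came from outside the NRF2 target list. Likeness was measured as the root mean square difference of log2 normalized counts, each gene centred on its own mean, among 10284 genes. The closest was GGCT (difference 0.058), followed by ERAP2, an aminopeptidase that trims peptides for antigen presentation (0.16), TMEM123, a membrane protein (0.17), GSTCD (0.17) and MCU, the pore of the mitochondrial calcium uniporter (0.17). Their log2 fold changes with siRNA-2 ran from −2.19 for MCU to −2.72 for ERAP2, and with siRNA-1 from −0.41 for ERAP2 to −0.75 for TMEM123. GGCT had 1880, 1683 and 1859 normalized counts with control siRNA, 1279, 1310 and 1221 with siRNA-1, and 343, 323 and 309 with siRNA-2.

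**Figure D4:**
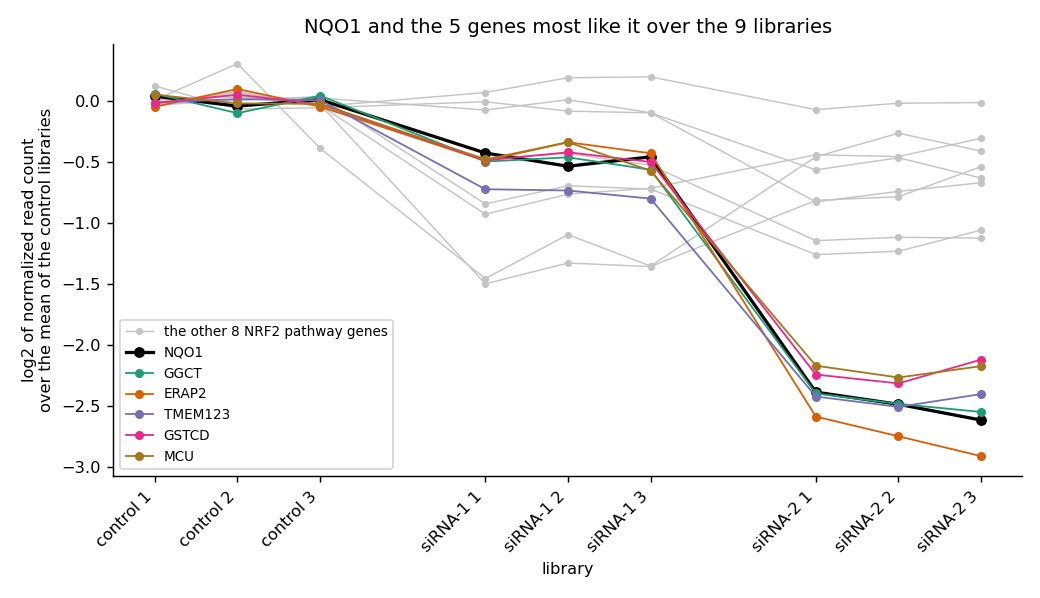
Log2 ratio of the normalized read count in each library to the mean of the control libraries (y axis) for NQO1, the 5 genes most like it and, in grey, the other 8 NRF2 pathway genes; lines join the libraries of a gene only to guide the eye. NQO1 and the 5 genes lie below −2 in the siRNA-2 libraries, where no grey gene does.

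Small interfering RNAs can also lower mRNAs whose 3′ UTR pairs with bases 2 to 8 of the guide strand, its seed, so the 3′ UTRs were compared letter by letter. All 7-letter words present in the 3′ UTR of at least 50 tested genes, 16148 words, were ranked by the median log2 fold change of the genes that hold them. With siRNA-2 against control the lowest was GGAATAA (1503 genes, median −0.33) and the next AGGAATA (1461 genes, median −0.32), and against siRNA-1 the same words were lowest in the other order, with AGGAATA at −0.21. With siRNA-1 against control AGGAATA ranked 6712 of 16150, at a median of −0.085. NQO1 holds both words in 1 stretch of its 3′ UTR, which begins at base 108 of 1575. Of the 9 genes, NQO1 was the only one with AGGAATA, a word found in 12.6% of the tested genes with a 3′ UTR, and all 5 of the genes most like NQO1 held it. The sites are shown with AGGAATA in capitals, on the strand of the mRNA, from GENCODE 29 transcripts in GRCh38, the first site of each gene only. They lie at chr16:69710853-69710877 (NQO1, minus strand), chr7:30496630-30496654 (GGCT, minus strand), chr5:96918595-96918619 (ERAP2, plus strand), chr11:102396488-102396512 (TMEM123, minus strand), chr4:105845845-105845869 (GSTCD, plus strand) and chr10:72886558-72886582 (MCU, plus strand).
NQO1: ttttccacaAGGAATAaatgagagg
GGCT: tgtttttagAGGAATAaacgtattt
ERAP2: aaaaggaaaAGGAATAtaattcata
TMEM123: atccatgaaAGGAATAattcaaata
GSTCD: ttccatcacAGGAATAacaatttcc
MCU: tttcacaggAGGAATAattgccctc
The words were picked by their values in the comparison in which NQO1 was chosen. The 5 genes were picked by their likeness to NQO1 over libraries that include those of siRNA-2. These figures are therefore a description without a test, and nothing is read from the 5 genes all holding the word.

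Genes with AGGAATA were lower with siRNA-2 in 56.5% of cases and higher in 15.7%, while genes without it were lower in 30.2% and higher in 29.5%, by the edgeR calls. AGGAATA was picked by its low median with siRNA-2, so the direction of this difference was set in advance and is no test. With siRNA-1 the shares called lower were 39.0% with and 32.2% without the word. Among the 32 other NRF2 targets tested, HTATIP2 alone held it, the target that rose with siRNA-1 and fell with siRNA-2. GGCT and GSTZ1 were the glutathione genes with the word, and GSTZ1 rose with both siRNAs. Of the 20 genes of NRF2 control, 4 held it and none of these was called with siRNA-2, at log2 fold changes of −0.079 for NFE2L3, −0.012 for AMER1, 0.082 for MAFG and 0.11 for BTRC. TXNL1, a thioredoxin-like gene whose 3′ UTR holds the word 4 times, had 0.0030 (adjusted p = 0.97 by edgeR), while SOD2 and FLVCR1, a heme exporter, held it once and fell with siRNA-2, by 0.78 and 0.84 on the log2 scale. GPX8, CPOX and MGST1, which were also far lower with siRNA-2, did not hold it in the 3′ UTR read here, and neither did GCLC, GCLM, GSR and HMOX1. AGGAATA pairs with the seed of an shRNA named LIMp27 shRNA-2 in the study's supplement, as far as its letters could be read from a page image, but the letters printed there for siRNA-2 differ and give another word, held among the 9 genes by GCLC only. That other word was in 9.92% of tested genes with a 3′ UTR. Genes with it were called lower in 41.5% of cases with siRNA-2 and 42.2% with siRNA-1. For genes without it these shares were 32.6% and 32.1%. Whether the siRNA-2 that was transfected carried the seed that pairs with AGGAATA, and what part it had in the level of NQO1, was not tested. The letters printed for siRNA-1 give a further word, held by none of the 9 genes and by 7 of the 32 other NRF2 targets (21.9%). It was in 14.1% of tested genes with a 3′ UTR. The 7 are ABCC1, AKR1B10, AKR1C1, PRDX1, RIT1, SLC7A11 and TKT. ABCC1 rose with siRNA-1 and RIT1 was not called. Genes with this word were called lower with siRNA-1 in 44.1% of cases, and those without in 31.3%. With siRNA-2 these shares were 40.9% and 32.3%. Its part in these levels was not tested.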

How the data were processed

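RNA-seq libraries from WiDr cells were analysed in 3 groups of 3. The authors deposited, for each LIMp27 siRNA against control siRNA, a table of raw read counts per gene and library, with identical control columns in both. The submitters' notes name CASAVA (no version) and the build GRCh38, a strand-specific library kit is given per the labels, and the aligner, the counting program and its strand setting are not given in the sources used here. FPKM values, also deposited, equal the counts over library total and gene length, which was checked to within 1% for genes with 20 or more reads in each library, and they were used to compare levels between genes. Columns of the authors' own normalized values, log2 fold changes and p-values were not used.

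Counts were tested for all genes in each comparison with edgeR 4.0.16 in R 4.3.3 (TMM, filterByExpr with a minimum count of 10, quasi-likelihood test), with Benjamini-Hochberg adjustment over all tested genes and a threshold of 0.05. The SE of a log2 fold change is its size over the square root of F. The procedure was tested on simulated data. Alternatives were RLE and upper-quartile normalization, DESeq2 1.42.0, no filter, 1 fit over all 9 libraries, the replicate number as a block, and leaving out each library in turn. The numbers were not used to pair samples.

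The 9 genes and the lists were chosen with earlier results of these data known. All 9 genes are named, as may be any gene of NRF2 control; from the other lists up to 3 called genes per direction and comparison by adjusted p, plus AKR1B10, AKR1C1, AKR1C2, AKR1C3, SLC7A11, TXN, OSGIN1, AHR, TIPARP and CYP1A1; and the 5 genes most like NQO1 whose mean normalized count was 100 or more. Of the genes this rule names, 1 is not reported here. CYP4F11 was named because it was not tested. For 3′ UTRs, 1 transcript a gene was read (APPRIS principal, the longest 3′ UTR, 30 bases or more; GENCODE 29). HMOX1 and GSR have no promoter entry in the RefSeq table used.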

Additional observations from a re-analysis of the deposited data

Results flagged for a closer look

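The following differ between the siRNAs by the direct test of siRNA-2 against siRNA-1 (edgeR, adjusted p under 0.05). This test uses no control library, but it shares the siRNA-2 libraries in which NQO1 was chosen. Of the 9 genes, NQO1 is left out as the gene that was chosen for this difference. Values are log2 fold changes of siRNA-2 over siRNA-1.

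Among the 9 genes, NFE2L2 (0.41), TXNRD1 (0.70) and SRXN1 (0.93) were higher with siRNA-2, and KEAP1 (−0.18), GCLC (−0.42), HMOX1 (−0.47), GSR (−0.64) and GCLM (−0.68) were lower. In every library of siRNA-2 these 5 genes were below, and NFE2L2, TXNRD1 and SRXN1 above, every library of siRNA-1. Of all tested genes, 45.4% were called in this comparison, 27.2% lay fully below and 25.3% fully above. The call of KEAP1 was lost when some single libraries were left out, as given above.

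Of the 32 other NRF2 targets tested, 13 were higher and 8 lower with siRNA-2. These are 40.6% and 25.0%, beside 23.1% and 22.4% of all tested genes, so the lower share lay near that of all genes. Those named by the rule on genes to report are given first. AKR1B10 (2.15), PRDX1 (1.03), AKR1C2 (0.99), UGDH (0.81), AKR1C1 (0.76), AKR1C3 (0.73), OSGIN1 (0.47), RIT1 (0.47) and ME1 (0.26) were higher with siRNA-2. HTATIP2 (−1.03), FECH (−0.62), BLVRB (−0.49) and PIR (−0.32) were lower. Of the rest, CBR3 (−1.45), TRIM16L (0.79) and ABCC3 (0.75) had the largest differences, and were picked after their values were seen. HTATIP2 holds AGGAATA in its 3′ UTR, and the part of that word in its level was not tested.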

How the results depend on the processing

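Over the 9 genes, 3 comparisons and 12 alternatives each, 310 of 324 values stayed on their side of the threshold, 14 kept the direction but no longer passed, and 0 that passed turned direction. Of the 310, 5 that did not pass changed sign: GCLM and HMOX1 with siRNA-1 and KEAP1 with siRNA-2 under upper-quartile normalization, HMOX1 without control replicate 1 and KEAP1 without control replicate 2. The 14 belong to KEAP1 with siRNA-1, KEAP1 between the siRNAs and SRXN1 with siRNA-2. Over all named genes, 76 of 3024 values no longer passed, 27 newly passed, 56 that did not pass changed sign, and 0 that passed turned direction. The count of the 9 genes called higher with siRNA-1 was 0 with DESeq2 and ranged from 0 to 1 with 1 library left out (0 without control replicate 1 or 3, or without siRNA-1 replicate 2 or 3). The count of other NRF2 targets lower with siRNA-2 than with siRNA-1 ranged from 5 to 8 with 1 library left out, and was 5 without siRNA-1 replicate 1 or siRNA-2 replicate 1. All other counts stayed within 1.5 times. With 1 library left out, NQO1 ranged from −2.54 to −2.43 with siRNA-2 and from −0.50 to −0.44 with siRNA-1. Upper-quartile normalization raised the median of all genes to 0.090 with siRNA-1 and 0.095 with siRNA-2. With the replicate number as a block, 3687 genes were called higher and 3981 lower with siRNA-1, 4026 and 4223 with siRNA-2, and 3311 and 3260 between the siRNAs. Deviations of same-numbered libraries correlated at −0.16 to 0.18 over 10284 genes. Not every library correlated best with its own number, so no consistent pairing by number was seen. With so few libraries this cannot exclude a pairing. No call of the 9 genes changed under the block, while RXRA with siRNA-2 and CHAC1 between the siRNAs newly passed. SRXN1, with 75 reads or more in each library, is the least precise of the 9 genes.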
